A study of Mus musculus with 6 samples.

Results

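Genes of fibroblasts and of the extracellular matrix were examined in thymus from Rag2/pfp knockout and wild-type mice. The set holds 40 genes chosen by symbol, covering collagens, proteoglycans, elastic fibre proteins, matrix enzymes with their inhibitors, fibroblast receptors and contractile genes. They were chosen with earlier results of these data known. Of these, 38 had at least 1 probe in the annotation used, with 55 probes in all, on an array that measured 16593 named genes, while Fbn1 and Fn1 were not analysed here. A probe was tested when its detection p-value, the deposited measure of signal against negative control beads, was under 0.05 on at least 3 of the 6 arrays. By this rule 29 genes were tested, 28 of them above background on all 6 arrays. Col3a1, Mfap4, Ccn5, Lmod1 and Nox4 were above background on only 1 or 2 arrays, and Col5a2, Fbln5, Postn and Thbs1 on none, so these 9 genes were not tested.

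The tissue of every sample was thymus, and the genotypes were Rag2/pfp KO (3 samples) and wild type, here WT (3 samples). Rag2 is needed to assemble antigen receptor genes in developing lymphocytes, and pfp stands for perforin, with which cytotoxic lymphocytes open pores in target cells. Total RNA of each sample was hybridised to 1 Illumina MouseRef-8 version 2 bead array, and the arrays are named KO 1 to KO 3 and WT 1 to WT 3 by the replicate numbers in the labels. The sources used here give neither age, sex nor strain, nor whether each sample is a different animal. The p-values therefore measure only how these samples differ from each other, and some of that spread may be technical.

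The thymus is built on a framework of epithelial cells held together by a mesenchymal capsule, septa and vessel walls, in which fibroblasts, pericytes and smooth muscle cells lay down collagens and other matrix. Fibrillar collagens carry tension, network-forming collagens build the basement membranes under vessels and epithelium, and small proteoglycans and elastic fibre proteins organise the fibrils. Matrix metalloproteinases cut these proteins and are held in check by their tissue inhibitors, and receptors for platelet-derived growth factor mark fibroblasts and pericytes.

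Values below are normalized log2 signals, on which a difference of 1 is a 2-fold change, and differences are KO minus WT with the standard error of the limma fit. Of 25697 probes per array, between 13729 and 13878 were above background, and the median deposited signal was 172 to 186 units. The Rag2 probe read between 6.73 and 7.88 in KO and between 8.17 and 9.17 in WT, but its place relative to the deleted part of the gene is not given, so it does not check the labels. Of 13 T cell markers, 12 had a probe, and their summed signal (normalized signal on the linear scale, added over the list) was 61360 to 109698 in KO and 132982 to 179794 in WT. The T cell markers were not uniform: Cd3g had a higher mean in KO (0.74), and Cd3e and Cd3d differed by −0.21 and −0.12. The other tested T cell markers had lower means in KO. Cd8a was below background on all 6 arrays. For 13 thymic epithelial markers, of which 11 had a probe, the summed signal was 23492 to 30944 in KO and 7740 to 18406 in WT. The epithelial markers did not share a direction. Krt14 was lower in KO (−3.06, limma adjusted p = 0.0139), as were the means of Cldn3 (−1.42) and Cldn4 (−0.44). Krt5 differed by 0.14, and the other measured epithelial markers had higher means in KO. The list medians overlapped, at 9.21, 8.66 and 9.71 on KO 1 to KO 3 and 9.33, 7.97 and 9.50 on WT 1 to WT 3. In whole thymus RNA, fewer cells of a type and less RNA per cell cannot be told apart.

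KO 2 and WT 2 stood apart from the other arrays of their genotype. The mean level of the 29 tested matrix genes was 9.61 on KO 1, 11.33 on KO 2 and 9.03 on KO 3, against 8.93, 10.10 and 8.998 on WT 1, WT 2 and WT 3. KO 2 was the highest KO array for 28 of the 29 genes, Mmp2 being the exception, and WT 2 was the highest WT array for 26, all but Col6a1, Col6a2 and Timp1. KO 1 lay above KO 3 for 26 genes. The median SD of a tested matrix gene was 1.04 within KO and 0.68 within WT, against 0.28 and 0.25 over all 9849 tested genes.

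Transcripts of heart, fat and vessels followed the same arrays. Of 14 heart and striated muscle markers 13 had a probe, and 11, 12 and 1 of them were above background on KO 1, KO 2 and KO 3, against 3, 11 and 10 on WT 1, WT 2 and WT 3. Their summed signal was 29377, 94508 and 2486 on the KO arrays and 838, 87709 and 2898 on the WT arrays. Myh7 was not above background on any array. The 11 measured of 12 brown and white fat markers summed to 45705, 79060 and 5430 on the KO arrays, against 4847, 72942 and 11738 on the WT arrays, with Retn above background on none. The 11 measured of 12 endothelial markers, all above background everywhere, summed to 14749, 34603 and 9117 on the KO arrays and 6472, 20284 and 8505 on the WT arrays. The part of these tissues in the matrix gene results was not tested. Differences of the tested genes are therefore given also without replicate 2 of both genotypes, which was decided once the arrays had been compared.

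**Figure D1:**
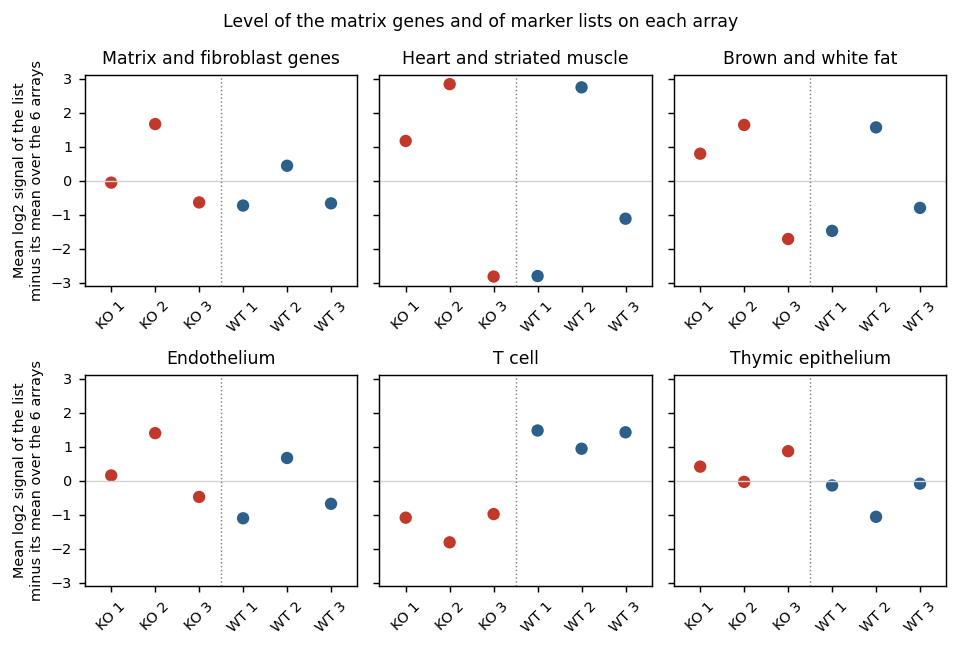
Mean normalized log2 signal of the 29 tested matrix and fibroblast genes and of 5 marker lists on each array, minus the list's mean over the 6 arrays (red KO, blue WT; 1 point per array, no error bar). The matrix genes, heart, fat and endothelial lists were highest on KO 2 among KO arrays and on WT 2 among WT arrays, while the T cell list was lower on every KO array than on every WT array.

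Across the 29 tested genes, the difference between genotypes passed the threshold for 1. Mmp2 was higher in KO and no gene was lower at an adjusted p of 0.05 in the limma fit, where 6.09% of all tested genes were higher and 5.57% lower. At an unadjusted p under 0.05 there were 2, Mmp2 and Pdgfrb, both higher, where 14.3% of all tested genes were higher and 14.2% lower. The median difference was 0.63 (median SE 0.58), against 0.01 (median SE 0.23) over all tested genes, and 27 of the 29 differences were above 0. That median rested on KO 2: without it, the median was −0.17, with 11 differences above 0 and 18 below. Without KO 3 it was 1.34, without WT 1 it was 0.29 and without WT 2 it was 1.13. Without replicate 2 of both genotypes the median was 0.39, with 23 differences above 0 and 6 below. As the genes were chosen with earlier results of these data known, these medians and directions are descriptions only. The KO and WT values did not overlap for Mmp2, Pdgfrb and Col15a1, all higher in KO, and for no gene lower, where the groups did not overlap for 16.9% of all tested genes in the higher and 17.3% in the lower direction.

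The replicate number was also taken as a block, which compares each KO array with the WT array of the same number. The labels do not say that these samples are paired. Deviations from the genotype mean correlated more for KO 3 with WT 1 (0.727) than with WT 3 (0.559). The block results here and below therefore rest on an uncertain pairing. With the block, 7 of the 29 were higher and none lower, where 12.4% of all tested genes were higher, 11.8% lower and 24.2% either. These were Mmp2, Pdgfrb, Lum, Col4a2, Timp3, Pdgfra and Col4a1. Without replicate 2 of both genotypes, 6 were higher and 1 lower, where 15.2% of all tested genes were higher and 14.0% lower. The 6 higher genes were those of the block fit other than Col4a1, and the lower one was Timp1.

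**Figure D2:**
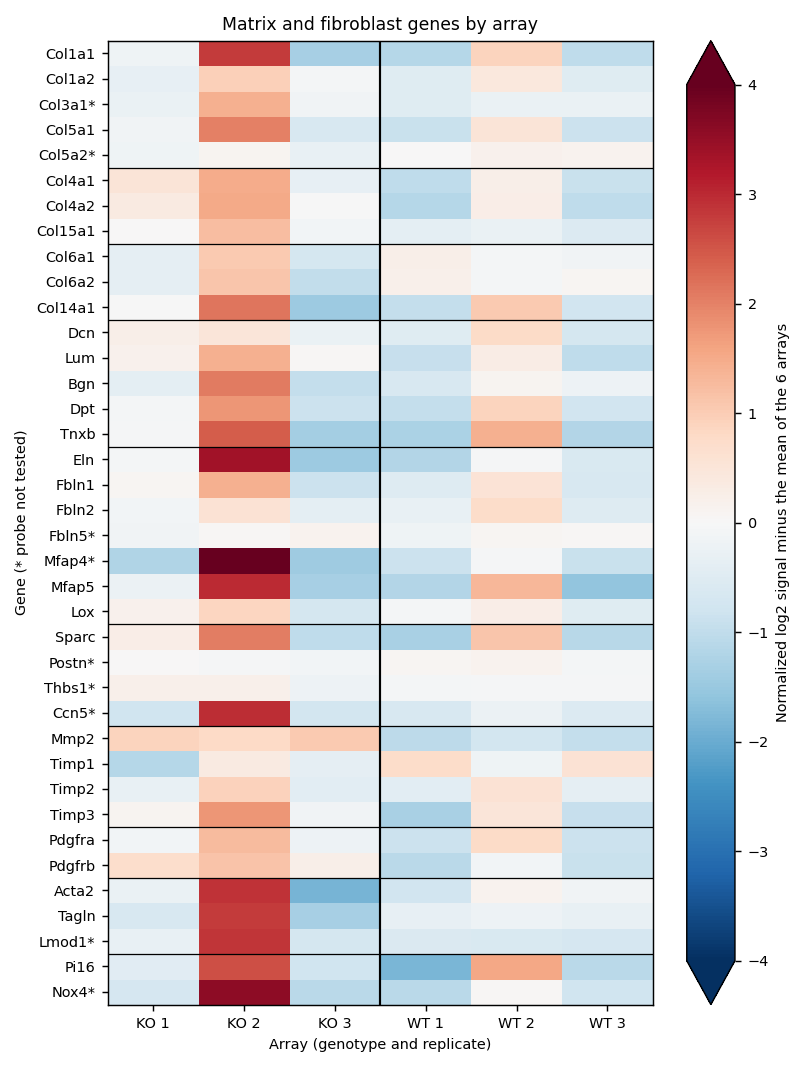
Normalized log2 signal of the 38 measured matrix and fibroblast genes on each array, minus the gene's mean over the 6 arrays, with genes grouped by role between the horizontal lines (asterisk, probe not tested; colours end at 4 on either side). KO 2 is the reddest column, WT 2 is raised within WT for most genes, and Mmp2 is raised on all 3 KO arrays.

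Among the matrix protease and its inhibitors, Mmp2 rose in KO. Mmp2 encodes a gelatinase that cuts denatured collagen and basement membrane collagen and is made mainly by fibroblasts. Its probe read 13.05, 12.98 and 13.23 on the KO arrays, against 11.12, 11.45 and 11.22 on the WT arrays. KO 2 was the lowest of the KO arrays, so within KO Mmp2 did not share the array pattern of the other genes. Within WT its highest array was WT 2, as for most of them. It averaged 13.09 ± 0.13 in KO and 11.26 ± 0.17 in WT (SD, n = 3 each), a 3.54-fold difference of 1.82 (SE 0.16, adjusted p = 0.00445). The difference was between 1.75 and 1.92 when any 1 array was left out, with adjusted p from 0.00633 to 0.0419, and 1.97 (adjusted p = 0.00385) without replicate 2 of both genotypes.

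The tissue inhibitors of metalloproteinases differed among themselves. Timp3, which binds to the matrix itself, read 10.88, 12.54 and 10.63 in KO and 9.47, 11.24 and 9.86 in WT. Its KO arrays each lay above the WT array of the same number, and the groups overlapped only through WT 2. The difference was 1.16 (SE 0.65, adjusted p = 0.308), with adjusted p = 0.0164 under the block and 0.0213 without replicate 2. A dimmer Timp3 probe, above background on 1 of 3 WT arrays, differed by 0.85 (SE 0.28, adjusted p = 0.114). Timp1, an inhibitor induced by inflammatory signals, ran the other way, at 6.33, 7.84 and 7.09 in KO against 8.21, 7.29 and 8.04 in WT. WT 2 was here the lowest WT array and KO 2 the highest KO array, and the difference was −0.76 (SE 0.43, adjusted p = 0.312). Without replicate 2 it was −1.42 (adjusted p = 0.0298), and the second Timp1 probe differed by −0.74 (adjusted p = 0.406) over all arrays. Timp2, which also takes part in activating Mmp2, read 11.81, 13.03 and 11.71 in KO and 11.71, 12.71 and 11.76 in WT. Its difference of 0.13 (SE 0.45, adjusted p = 0.882) was smaller than the spread within either genotype, and it was 0.028 without replicate 2.

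Both receptors for platelet-derived growth factor had higher means in KO. Pdgfrb, the receptor of pericytes and other mural cells, read 8.42, 8.86 and 7.93 in KO and 6.64, 7.61 and 6.81 in WT. Every KO array lay above every WT array, and the difference of 1.39 (SE 0.35) gave an adjusted p of 0.0546. It passed without WT 2 (1.68, adjusted p = 0.0258, in a fit where 7.44% of all tested genes were higher and 15.3% passed in either direction), without replicate 2 of both genotypes (1.45, adjusted p = 0.0136) and under the block (adjusted p = 0.0121), and it missed without any other 1 array (adjusted p up to 0.191). Pdgfra, the receptor that marks most fibroblasts, read 8.86, 10.21 and 8.76 in KO and 8.10, 9.72 and 8.12 in WT. The groups overlapped through WT 2, and the difference of 0.63 (SE 0.58, adjusted p = 0.539) became 0.70 (adjusted p = 0.0188) without replicate 2, with adjusted p = 0.0315 under the block.

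**Figure D3:**
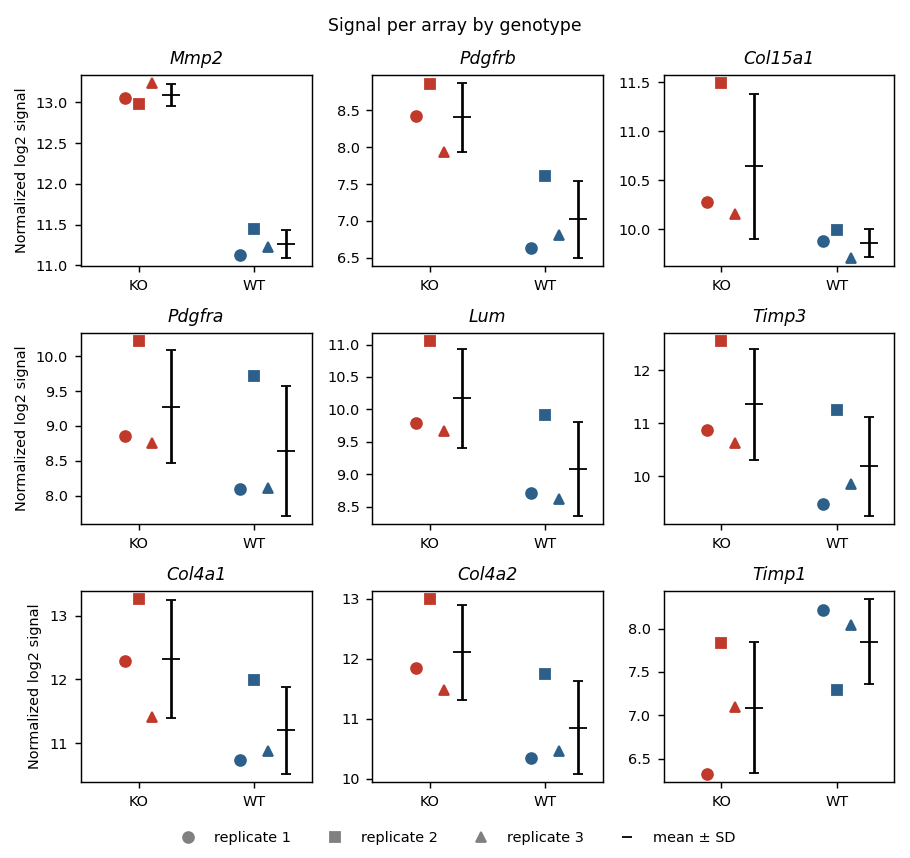
Normalized log2 signal per array for 9 genes (red KO, blue WT; circle, square and triangle for replicates 1, 2 and 3; black bars, mean and SD of 3 arrays), each panel on its own axis that does not start at 0. Mmp2 is tight within genotype, replicate 2 is the highest square in both genotypes for Pdgfra, Lum, Timp3, Col4a1 and Col4a2, and Timp1 is higher on WT 1 and WT 3 than on any KO array.

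Basement membrane collagens had higher means in KO, with replicate 2 high in both genotypes for Col4a1 and Col4a2 and mainly in KO for Col15a1. Col4a1 and Col4a2 encode the chains that form the main collagen IV network. Col4a1 read 12.29, 13.25 and 11.42 in KO, against 10.74, 11.99 and 10.88 in WT. Col4a2 read 11.85, 12.99 and 11.48 in KO, against 10.35, 11.74 and 10.46 in WT. In both genes the KO array of each number lay above the WT array of that number, and KO 3 lay below WT 2. The differences were 1.12 (SE 0.54, adjusted p = 0.242) for Col4a1 and 1.25 (SE 0.52, adjusted p = 0.182) for Col4a2. Under the block the adjusted p was 0.0326 and 0.0108, and without replicate 2 the differences were 1.04 (adjusted p = 0.0763) and 1.26 (adjusted p = 0.0127). Col15a1, a collagen that links basement membranes to the underlying matrix, read 10.28, 11.49 and 10.16 in KO and 9.87, 9.99 and 9.71 in WT. The groups did not overlap, but the difference of 0.78 (SE 0.37) did not pass (adjusted p = 0.228), and without replicate 2 it was 0.43 (adjusted p = 0.0791).

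The collagen IV genes lie head to head on mouse chromosome 8, and their starts in RefSeq (GRCm38.p6) are 21 bases apart, Col4a2 on the plus strand and Col4a1 on the minus strand. The stretch from the Col4a2 start to the Col4a1 start, chr8:11312805-11312826, is shown because the 2 genes had nearly the same array pattern and begin in it.
Col4a2 start to Col4a1 start, plus strand: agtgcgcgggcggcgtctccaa
The stretch is 22 bases long and read 5′ to 3′ on the plus strand. As the Col4a1 start has the higher coordinate, both genes include the stretch, which is not a gap between them.

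Fibrillar collagen genes varied more between replicates than between genotypes. Col1a1, a chain of collagen I, read 8.12, 11.08 and 6.94 in KO and 7.13, 9.18 and 7.26 in WT. KO 3 was the lowest array of all and KO 2 the highest, and the difference of 0.86 had an SE of 1.12 (adjusted p = 0.670). Without replicate 2 it was 0.33 (adjusted p = 0.576). Col1a2, the other collagen I chain, read 5.69, 6.95 and 5.94 in KO and 5.53, 6.44 and 5.54 in WT. Its difference was 0.36 (SE 0.41, adjusted p = 0.621) over all arrays and 0.28 without replicate 2. Col5a1, a chain of the collagen that starts fibrils, read 9.36, 11.54 and 8.88 in KO and 8.61, 10.04 and 8.65 in WT (difference 0.83, SE 0.76, adjusted p = 0.539), and differed by 0.49 (adjusted p = 0.134) without replicate 2. Col3a1 was above background on KO 2 alone, at 6.92, with the other arrays between 5.0 and 5.34.

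Collagen VI and collagen XIV behaved differently from each other. Col6a1 and Col6a2 encode chains of the beaded filaments around cells. Col6a1 read 10.96, 12.36 and 10.62 in KO and 11.54, 11.23 and 11.16 in WT, and Col6a2 read 8.48, 9.93 and 7.85 in KO and 9.03, 8.77 and 8.92 in WT. KO 2 was above every WT array and KO 1 and KO 3 were below every WT array in both genes, so the differences of 0.00 (SE 0.45) and −0.15 (SE 0.51) joined opposite values. Without replicate 2 the differences were −0.56 (adjusted p = 0.114) and −0.81 (adjusted p = 0.0731). The second Col6a1 probe above background differed by −0.16 (SE 0.49) over all arrays. Col14a1, which binds collagen fibrils, read 7.01, 9.17 and 5.58 in KO and 6.10, 8.10 and 6.27 in WT, with a difference of 0.43 (SE 0.98, adjusted p = 0.814) over all arrays and 0.11 (adjusted p = 0.884) without replicate 2.

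Among small proteoglycans and other fibril-binding proteins, lumican stood out. Lum, which spaces collagen fibrils, read 9.79, 11.05 and 9.67 in KO and 8.71, 9.91 and 8.62 in WT. The difference within each replicate number was nearly constant, and the mean difference of 1.09 (SE 0.50, adjusted p = 0.218) had an SE of 0.12 under the block (adjusted p = 0.00927). Without replicate 2 it was 1.06 (adjusted p = 0.00879). Dcn, decorin, which binds collagen I, read 13.51, 13.75 and 12.998 in KO and 12.78, 14.02 and 12.55 in WT, and here WT 2 was the highest of all arrays. Its difference was 0.30 (SE 0.43) over all arrays and 0.59 (adjusted p = 0.116) without replicate 2. Bgn, biglycan, read 11.68, 14.15 and 11.11 in KO and 11.44, 12.19 and 11.85 in WT. Its difference was 0.49 (SE 0.78) over all arrays and −0.25 without replicate 2. Dpt, dermatopontin, and Tnxb, a tenascin of connective tissue, both had KO 2 highest and WT 2 second. Dpt differed by 0.54 (SE 0.79) over all arrays and by 0.39 without replicate 2. Tnxb read 8.56, 11.05 and 7.27 in KO and 7.34, 10.02 and 7.45 in WT, and its 3 tested probes differed by 0.69, 0.77 and 0.83 (adjusted p from 0.677 to 0.740). The probe with these values differed by 0.52 (adjusted p = 0.429) without replicate 2.

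The tested elastic fibre genes other than Fbln2 had their highest signal on KO 2. Eln, the gene of elastin, read 7.89, 11.35 and 6.51 in KO and 6.81, 7.94 and 7.36 in WT. KO 2 was 4.15 above the mean of the other KO arrays, WT 2 was 0.85 above the mean of the other WT arrays, and KO 3 was the lowest array. The difference was 1.21 (SE 1.18, adjusted p = 0.564) over all arrays and 0.11 without replicate 2. Mfap5, a microfibril protein of adventitial fibroblasts, read 7.81, 11.04 and 6.72 in KO and 6.87, 9.38 and 6.47 in WT. Its difference was 0.95 (SE 1.27) over all arrays and 0.60 (adjusted p = 0.326) without replicate 2. Fbln1 and Fbln2 encode fibulins and Lox the enzyme that crosslinks collagen and elastin. Their differences were 0.41, 0.06 and 0.20, with SEs of 0.41 to 0.62, and without replicate 2 they were 0.18, 0.17 and 0.018. For Fbln2 a second probe differed by −0.30 (adjusted p = 0.692), so its 2 tested probes did not share a direction. Mfap4, a microfibril-associated protein of elastic tissue, was above background on KO 2 at 10.61 and on WT 2 at 6.11, with the other arrays between 4.74 and 5.32.

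Sparc and Pi16 were high on replicate 2 of both genotypes. Sparc encodes osteonectin, a matricellular protein that binds collagen. It read 11.61, 13.40 and 10.33 in KO and 10.06, 12.45 and 10.24 in WT. The difference was 0.86 (SE 0.95, adjusted p = 0.607) over all arrays and 0.82 (adjusted p = 0.237) without replicate 2. Pi16, a marker of adventitial fibroblasts, read 9.01, 12.01 and 8.66 in KO and 7.63, 11.004 and 8.36 in WT, and replicate 2 exceeded the mean of the others by 3.18 in KO and 3.01 in WT. The difference between genotypes was 0.89 (SE 1.18, adjusted p = 0.674), with adjusted p = 0.0591 under the block, and 0.84 (adjusted p = 0.103) without replicate 2.

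Contractile genes were far higher on KO 2 than on the other KO arrays. On WT 2, Acta2 had a smaller excess, while Tagln (0.09) and Lmod1 (0.02) barely exceeded the mean of the other WT arrays. Acta2, smooth muscle actin, read 12.66, 15.81 and 11.07 in KO and 12.17, 13.05 and 12.79 in WT. KO 2 lay 3.94 above the mean of the other KO arrays, WT 2 lay 0.57 above the mean of the other WT arrays, and KO 3 was lowest of all. Its difference was 0.51 (SE 1.14, adjusted p = 0.810) over all arrays and −0.62 (adjusted p = 0.466) without replicate 2. The other 3 Acta2 probes also had KO 2 highest and KO 3 lowest. Tagln, the actin-binding protein transgelin of smooth muscle, read 5.86, 9.32 and 5.19 in KO and 6.19, 6.29 and 6.22 in WT, and was not above background on KO 3. KO 1 and KO 3 were below every WT array, and the difference without replicate 2 was −0.67 (adjusted p = 0.118). Lmod1, leiomodin of smooth muscle, read 5.75, 8.89 and 5.32 in KO and was above background on none of the WT arrays. Ccn5, a matricellular protein of vascular smooth muscle, read 8.54 on KO 2 and was not above background on any other array. Nox4, an NADPH oxidase of vessel walls, was above background on KO 2 at 9.31 and on WT 2 at 5.77.

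**Figure D4:**
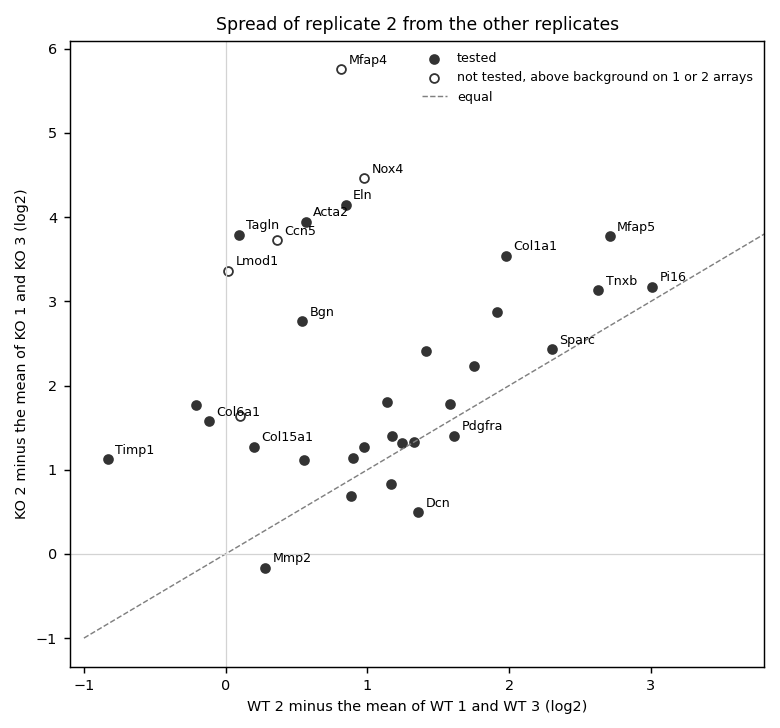
For each gene above background on at least 1 array, the log2 signal of KO 2 minus the mean of KO 1 and KO 3 (vertical) against that of WT 2 minus the mean of WT 1 and WT 3 (horizontal); filled points were tested, open points were not, and the dashed line marks equal values. Pi16, Sparc and Pdgfra lie near the line, while Tagln, Lmod1, Acta2, Ccn5, Eln, Nox4 and Mfap4 lie far above it and Mmp2 lies near 0 on both axes.

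The Acta2 promoter is shown because Acta2 had the brightest signal of the contractile genes that were high on KO 2. Promoter sequences of 25 of the 40 genes were found in the RefSeq table (GRCm38.p6). In the 250 bases before each start, both strands were searched for the CArG box, the element bound by serum response factor in contractile genes, in its strict form and with at most 1 G or C in its 6-letter core. The strict form was in none of the 25 genes and in 1.47% of all 32851 promoters. The relaxed form was in 5 of the 25 genes (Acta2, Timp3, Nox4, Col1a2 and Fbln2). Counted by promoter, as a gene can have several, it was in 5 of their 29 promoters and in 8.59% of all promoters. Acta2 held 2 relaxed matches, which do not overlap and begin 84 and 34 bases before the start. The Acta2 stretch lies at chr19:34255374-34255623 on the minus strand and is read 5′ to 3′ towards the gene, with the 2 matches in capitals.
Acta2: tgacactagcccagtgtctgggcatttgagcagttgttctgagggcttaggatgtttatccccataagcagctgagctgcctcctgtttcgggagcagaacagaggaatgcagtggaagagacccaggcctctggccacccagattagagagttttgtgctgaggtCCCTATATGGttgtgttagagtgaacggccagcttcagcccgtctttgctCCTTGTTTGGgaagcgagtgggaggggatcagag

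**Figure D5:**
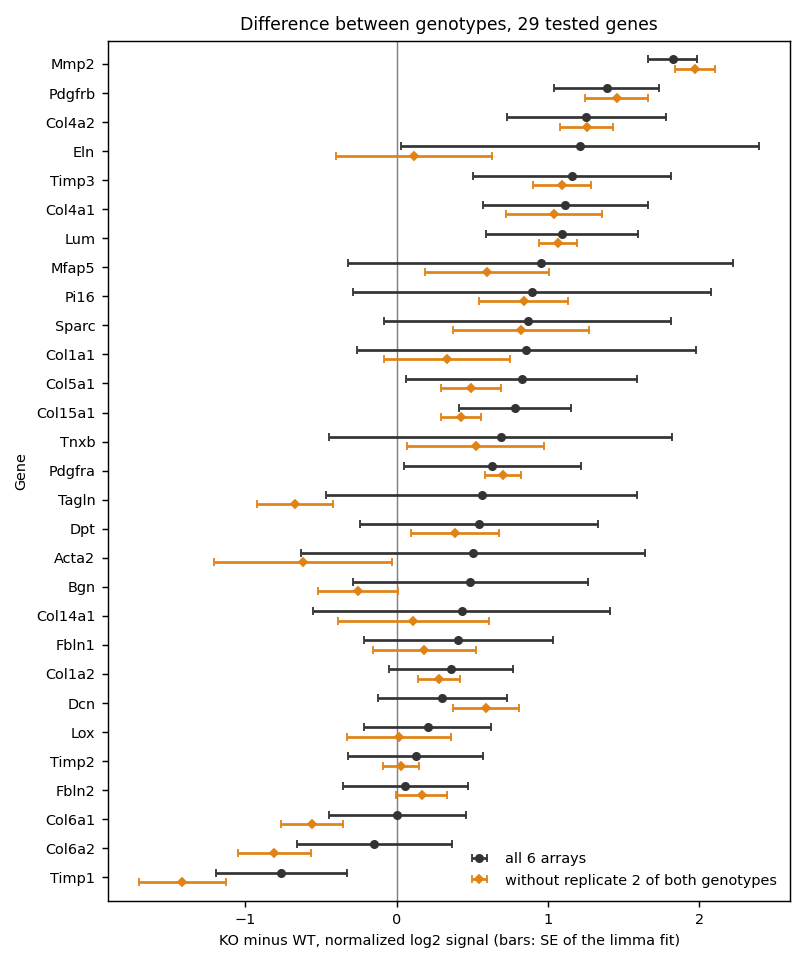
KO minus WT difference in normalized log2 signal for the 29 tested genes, over all 6 arrays (black circles) and without replicate 2 of both genotypes (orange diamonds); bars are the SE of the limma fit. Mmp2 has the largest difference and a short bar in both fits, Pdgfrb, Col4a2, Timp3, Col4a1 and Lum lie above 1 in both, and Eln, Acta2, Tagln and Bgn move towards or below 0 without replicate 2.

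Other genes of the matrix, of mesenchyme and of its signalling were read from 13 lists. These lists were also chosen with earlier results of these data known, so their counts are descriptions only. Of 286 genes, 253 had a probe and 175 were tested. In the limma fit 20 of these were higher and none lower, where 6.09% of all tested genes were higher and 5.57% lower. Among the 20, Bmpr2 met the detection rule only through its KO arrays, and P4ha3 was above background on only 1 WT array. Neither call is taken as support for a direction. At an unadjusted p under 0.05, 37 of the 175 were higher and 7 lower, where the shares of all tested genes were 14.3% and 14.2%. The median difference of the 175 was 0.54, and 144 differences were above 0. The number called was 4 without KO 1, 10 without KO 3, 6 without WT 1 and 4 without WT 3, and 4 to 29 over the 6 fits without 1 array. Calls over all tested genes also moved in those fits, from 158 to 1506, against 1149 of 9849 with every array. With the block, 48 list genes were higher and 4 lower, where 12.4% of all tested genes were higher and 11.8% lower. Without replicate 2, 50 list genes were higher and 9 lower, where the shares were 15.2% and 14.0%. Of the 20, only Spon2, Has3 and Notch3 passed in each of the 6 fits that left out 1 array, and for the others the highest adjusted p over those fits was at most 0.161 (Bmpr1a). With the block 19 of the 20 passed (not Mmp13, adjusted p = 0.0503), and without replicate 2 of both genotypes 19 passed (not Sdc4, adjusted p = 0.0652). As background, Notch3 and Thy1 are also expressed by thymocytes, and Itgb4 and Ddr1 by epithelium. The part of the T cell and epithelial signals given above in these differences was not tested.

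Matrix enzymes and structural genes outside the 40 contributed 9 of the calls. Over all tested genes 6.09% were higher and 5.57% lower, the shares to set beside each list here. Of 14 tested proteases and inhibitors, 3 rose and none fell. Mmp9, the other gelatinase, read 10.37, 10.31 and 10.53 in KO and 8.71, 7.93 and 8.71 in WT, a difference of 1.96 (SE 0.25, adjusted p = 0.00964). Mmp17, a membrane-anchored metalloproteinase, rose by 1.63 (SE 0.20) and the collagenase gene Mmp13 by 1.30, while Serpinf1, the brightest that did not pass, differed by 0.90 (adjusted p = 0.473, and 0.0157 with the block). Of 19 genes of collagen synthesis, P4ha3, a collagen prolyl hydroxylase subunit, rose by 2.10 (SE 0.32). Its probe was above background on only 1 WT array (5.76, 5.18 and 5.24 in WT), so the size of this difference depends on signals near background. P4hb, the brightest that did not pass, differed by 0.16 (adjusted p = 0.553). Of 12 basement membrane genes, Agrn (agrin) rose by 1.00 (SE 0.21), and Egfl7 differed by 0.68 (adjusted p = 0.559). Of 11 proteoglycan and hyaluronan genes, 3 rose: Esm1, an endothelial proteoglycan, by 2.36, the hyaluronan synthase gene Has3 by 1.98 and the syndecan gene Sdc4 by 0.97. Gpc1 differed by 0.58 (adjusted p = 0.0772), and passed with the block (adjusted p = 0.0499) and without replicate 2 (0.70, adjusted p = 0.0270). Spon2, a secreted matrix protein, was the call among 11 matricellular genes. It read 11.69, 11.80 and 11.41 in KO and 9.90, 9.61 and 9.96 in WT (difference 1.81, SE 0.18), and Tnc differed by 0.85 (adjusted p = 0.373).

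No gene passed among 9 tested collagen chains outside the 40, 8 crosslinking and fibril assembly genes or 9 elastic fibre genes. Over all tested genes 6.09% were higher and 5.57% lower in that fit. The brightest of these lists were Col18a1, at 11.07, 12.67 and 11.57 in KO against 10.34, 10.17 and 10.10 in WT (adjusted p = 0.0593, with the block 0.0413 and without replicate 2 0.0284), Prelp (0.47, adjusted p = 0.740) and Mfap3 (0.02, adjusted p = 0.958). With the block, where 12.4% of all tested genes were higher and 11.8% lower, 2 collagen chains were higher and 1 lower, 1 crosslinking gene was higher and 2 elastic fibre genes were higher. Without replicate 2, where the shares were 15.2% and 14.0%, 2 collagen chains were higher and 2 lower, 1 crosslinking gene was lower and 3 elastic fibre genes were higher.

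Genes of mesenchyme, growth factors and adhesion held the remaining 11 calls. As above, 6.09% of all tested genes were higher and 5.57% lower, the shares to set beside each list here. Of 32 fibroblast and mesenchyme markers, 2 rose and none fell. Cxcl12, a chemokine of stromal cells, read 14.13, 13.89 and 14.22 in KO and 11.92, 12.69 and 12.13 in WT (difference 1.83, SE 0.24), and Ltbr, the lymphotoxin beta receptor, rose by 1.197. Thy1 differed by −1.14 (adjusted p = 0.0555, and 0.0125 with the block). Of 18 genes of transforming growth factor beta and related pathways, 4 rose, with Inhbb (1.92), an activin subunit, and Bmpr1a (1.26), a bone morphogenetic protein receptor, among them. Bmpr2, another receptor of that family, was not above background on any WT array and was at least 1.79-fold higher in KO. It is counted among the 4, but it met the detection rule only through its KO arrays, so its p-value is not given as support. Tgfbr2 differed by 0.10 (adjusted p = 0.752). The bound compares the KO mean with a WT mean in which each array takes its lowest detected signal, or the signal of the Bmpr2 probe where that is higher. Of 3 ligand genes of platelet-derived growth factor, Pdgfa rose by 1.15 (SE 0.21) and Pdgfb differed by 0.85 (adjusted p = 0.497, and 0.0475 with the block). Of 16 smooth muscle and pericyte genes, Notch3 (2.12, SE 0.19), a receptor of mural cells, and Synm (1.43, SE 0.25), an intermediate filament protein, rose, and Tpm1 differed by 0.28 (adjusted p = 0.662). Of 14 integrins and other matrix receptors, the collagen receptor gene Ddr1 (1.49, SE 0.26) and the laminin-binding integrin gene Itgb4 (1.26, SE 0.25) rose, and Itga3 differed by 0.73 (adjusted p = 0.0726).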

How the data were processed

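Bead intensity values and detection p-values per probe were deposited by the authors in 1 table, and GenomeStudio 2011.1 is named in the submitters' processing notes. A deposited table of processed log2 values matched, within 5.0e-07, the quantile-normalized log2 of the deposited intensities, with no background correction. Here the intensities were background corrected with the detection p-values and quantile normalized with limma 3.58.1 (neqc, offset 16) in R 4.3.3, and numpy 2.4.6, pandas 2.3.3 and matplotlib 3.10.9 under Python 3.11.15 served for tables and plots.

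Of 25697 probes, 23978 had 1 gene symbol in the platform annotation and 1719 none. The 14097 probes above background (detection p under 0.05) on at least 3 arrays were tested with lmFit and eBayes, KO minus WT, with Benjamini-Hochberg adjustment over all of them and a threshold of 0.05. For genes with several tested probes the brightest on average was used, and disagreement between probes is stated. The number of arrays limits the precision. The procedure was tested on simulated data.

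The 40 genes and all lists were chosen with earlier results of these data known. Genes past the threshold or without overlap between groups were to be named with every array value, with the 2 brightest of each role, and from each pathway list up to 3 called genes with the largest difference and the brightest not called. Array values of further genes among the 40 were added after they were seen. Replicate numbers were taken from the labels. Deviations from the genotype mean correlated at 0.104, 0.750 and 0.559 between same-numbered arrays, each over 0.1, so the numbers were taken to pair the samples, although KO 3 with WT 1 reached 0.727 and KO 1 with WT 3, at 0.108, was no lower than KO 1 with WT 1. The alternatives were median centring, no background correction, an offset of 50, the deposited log2 values, other detection filters, the replicate block, a variance trend, array weights, averaging the probes of a gene, and omitting each array in turn. The fit without replicate 2 of both genotypes and the alternatives for the pathway lists, were added after seeing the data.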

Additional observations from a re-analysis of the deposited data

How the results depend on the processing

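Mmp2 passed under every alternative tried. Of the 29 tested genes, 1 passed, against 2 with median centring or with a detection p under 0.01 on all arrays. These were Mmp2 and Pdgfrb, with Pdgfrb at limma adjusted p 0.0496 and 0.0468. The shares of all tested genes that passed in those fits are not given here, so this count has no background. The count was 7 with the replicate block, 21 with array weights, 7 without replicate 2 of both genotypes and 1 to 2 without 1 array. Of all 9849 tested genes 1149 passed, against 2386 with the block, 7391 with array weights, 2878 without replicate 2 and 158 to 1506 without 1 array (161 without KO 1, 518 without KO 3, 180 without WT 1 and 158 without WT 3). The pathway lists had 20 calls, against 52 with the block, 139 with array weights, 59 without replicate 2 and 4 to 29 without 1 array. The array weights, from 0.139 on WT 2 to 33.3 on KO 1, were not estimated to the convergence tolerance. The median difference of the 29 was −0.17 to 1.34 without 1 array. Direction reversed with array weights for Col6a1 (−0.25), Bgn (−0.13), Acta2 (−0.058) and Tagln (−0.34), with the mean of probes for Col6a1 (−0.079) and Fbln2 (−0.12), and without replicate 2 for Col6a1 (−0.56), Bgn (−0.25), Acta2 (−0.62) and Tagln (−0.67). Without 1 array, the difference ranged across 0 for Col1a1 (−0.33 to 1.74), Col1a2 (−0.018 to 0.66), Col6a1 (−0.52 to 0.35), Col6a2 (−0.74 to 0.30), Col14a1 (−0.53 to 1.27), Bgn (−0.43 to 1.09), Dpt (−0.20 to 1.13), Tnxb (−0.35 to 1.56), Eln (−0.17 to 2.25), Fbln1 (−0.19 to 0.94), Fbln2 (−0.22 to 0.45), Mfap5 (−0.31 to 1.85), Lox (−0.17 to 0.61), Timp2 (−0.30 to 0.45), Acta2 (−0.81 to 1.56), Tagln (−0.70 to 1.36) and Pi16 (−0.16 to 1.90). The cause was not tested. The block changed no call of the 29 other than those named. Signals near background, as for Tagln on KO 3, limit what a difference can show.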

Other observations

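Among 2446 genes outside the lists that ranged over more than 1 log2 unit within a genotype, the 5 whose values, with each genotype mean subtracted, correlated most over the 6 arrays with the mean of the 29 tested matrix genes were Csf1, Lynx1, Nes, Mdh1 and Ctnnbip1 (Pearson's r 0.998 each). The correlation is a description, and both measures come from the same 6 arrays. Nes, the gene of nestin, an intermediate filament protein, read 5.92, 8.37 and 4.80 in KO and 4.82, 6.64 and 4.81 in WT. Csf1, the gene of a macrophage growth factor, read 6.68, 7.72 and 6.44 in KO and 6.22, 6.89 and 6.23 in WT. In both genes KO 2 was highest and WT 2 was the highest WT array.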
